A study of Sus scrofa with 15 samples.

Results

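The 45 genes described here encode the core machinery of autophagy, from the kinase complex that starts it to the proteins that deliver its cargo to the lysosome. They were chosen by name, with earlier results of these data known, and all 45 were found among the 22516 genes of the pig gene table. They were followed from pig oocytes at the germinal vesicle (GV) stage, arrested in prophase of meiosis, to oocytes after in vitro maturation (IVM). GV oocytes came from fresh ovarian follicles, were stripped of cumulus cells by hyaluronidase and vortexing, and were not cultured. MII (metaphase II) oocytes had 44 h of IVM by the labels and showed a first polar body once hyaluronidase had stripped the cumulus cells, and ‘damaged’ oocytes had the same IVM and treatment but showed none. There were 5 libraries per group, each made from the polyadenylated RNA of 15 pooled oocytes, and the labels name no strain, genotype or age. The study describes 5 independent collections with 15 oocytes of each group, but not whether a replicate number stands for a collection.

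In autophagy a cell wraps part of its own cytoplasm in a growing double membrane, the autophagosome, which then fuses with a lysosome where the content is broken down. A kinase complex around ULK1 receives the starvation signal, a lipid kinase complex around BECN1 marks the membrane site, ATG9A, ATG2 and VMP1 bring in lipid, and conjugation enzymes couple the small ubiquitin-like ATG8 proteins (LC3 and GABARAP) to the membrane, where receptors such as SQSTM1 dock their cargo. A fully grown oocyte transcribes little and relies on stored maternal RNA, much of which is translated or degraded during maturation.

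Estimated counts summed to between 6.40 and 23.6 M per library. The GV library with the lowest total, replicate 3, was left out of every fit and mean, so GV had n = 4, because the study removed the GV library with fewest reads. Of 11 oocyte markers 10 were found and all 10 were detected in each group (in MII 1 rose and 6 fell), with summed levels of 10408 to 11858 CPM (counts per mega counts) in GV, 6515 to 9107 in MII and 7945 to 9904 in ‘damaged’ libraries. Of 12 cumulus and granulosa cell markers 9 were found and only 3 had enough counts to be tested, and their summed level was 4.12 to 5.93, 2.88 to 8.42 and 4.10 to 4.62 CPM, with *AMH* at 0 in all MII libraries and *PTGS2* the 1 that rose in MII (1.26 on the log2 scale, FDR 0.00146). All 8 markers of theca, stroma, blood and endothelium were found and summed to 9.13 to 16.7, 16.3 to 33.4 and 15.7 to 27.6 CPM, and 3 were tested. *PECAM1* rose (3.39 to 5.70 CPM in GV and 8.10 to 24.8 CPM in MII), *COL1A2* (4.17 to 7.38 and 1.93 to 4.38 CPM) and *DCN* (0.986 to 3.28 and 0.717 to 5.70 CPM) did not pass, and *CDH5* was at 0 in all GV and MII libraries. The part of such cells in the results was not tested. In 7 of 15 columns of the gene table the name and the values pointed to different libraries. MII and ‘damaged’ libraries were told apart by their transcript files, as labelled, and whether those labels are right was not tested.

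From GV to MII, 13 autophagy genes rose, 14 fell and 16 did not pass the test, shares close to those of all genes. The largest rise was that of *VMP1*, a membrane protein that scrambles lipids between leaflets, and the largest falls were those of *ATG16L2*, *ATG9A*, *MAP1LC3A* and *ULK1*. A gene was said to rise or fall at a false discovery rate (FDR) under 0.01 in limma, and to be a differentially expressed gene (DEG) where the log2 fold change also exceeded 2 in size. The 43 autophagy genes with enough counts were tested among 13225 genes, of which 28.2% rose and 34.2% fell, beside 30.2% and 32.6% of the autophagy genes. Of the 5 DEGs 1 was higher and 4 were lower in MII, against a background of 4.51% and 17.1% of all genes. On the log2 scale the median change was -0.14 for the 43 genes and -0.17 for all genes. In ‘damaged’ oocytes, compared with the same 4 GV libraries, 13 rose and 12 fell (28.0% and 33.4% of all genes). The DEGs there were *VMP1* above and *ULK1*, *ATG9A* and *ATG16L2* below (4.08% and 16.4% of all genes). The shares of all genes that rose or fell also stand beside the counts by role below.

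**Figure D1:**
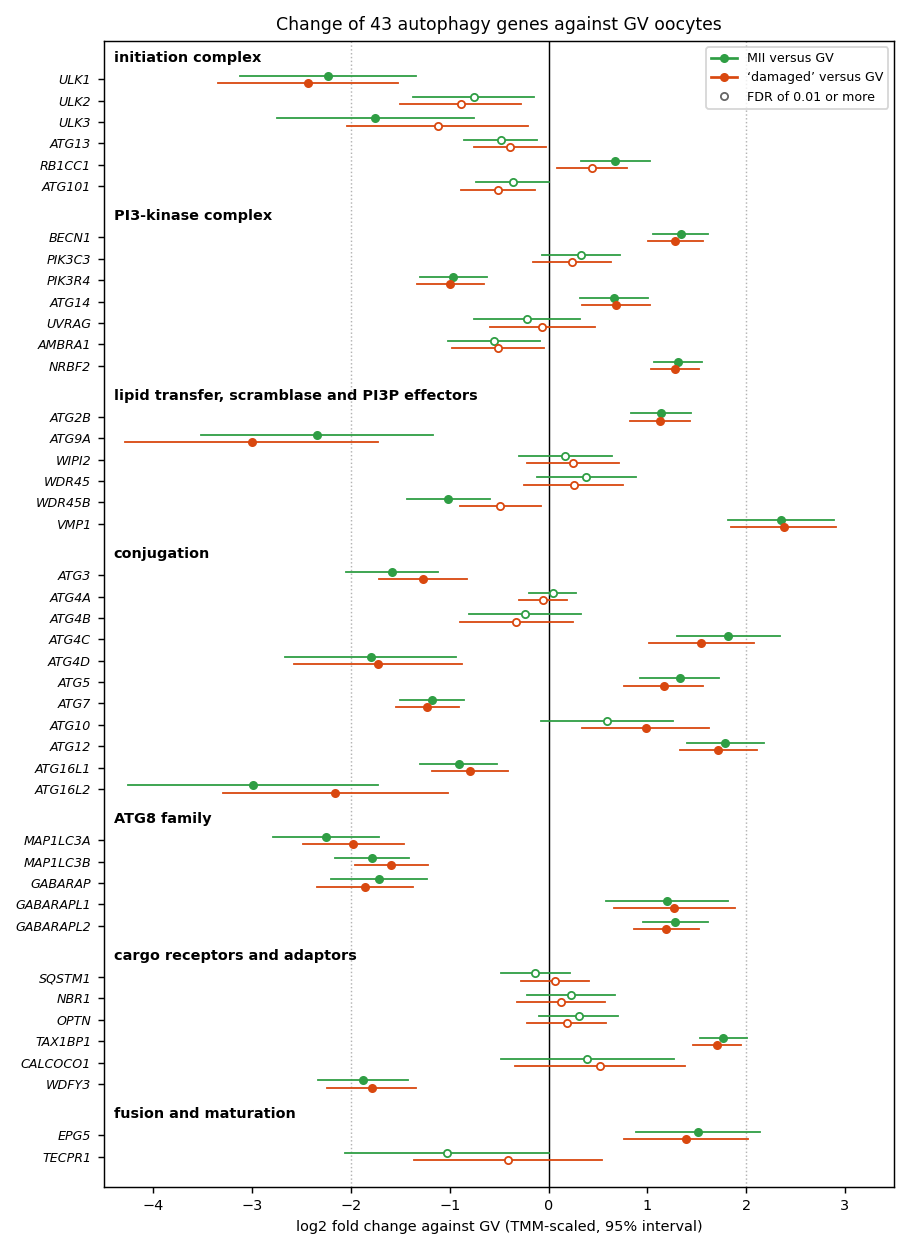
Log2 fold change (x axis, limma, TMM-scaled libraries) of the 43 tested autophagy genes by role, for MII and ‘damaged’ oocytes against the same 4 GV libraries. Points are estimates, lines 95% intervals, open points an FDR of 0.01 or more and dotted lines a log2 fold change of 2 in size. Each role group holds genes on both sides of 0, from -2.99 for *ATG16L2* to 2.35 for *VMP1* in MII, and the estimates for MII and ‘damaged’ oocytes lie close together.

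These values are relative to the other RNAs in a library, scaled by TMM (trimmed mean of M values), so a lower share of a transcript and less RNA per oocyte cannot be told apart. As the libraries were made from polyadenylated RNA, a change in the polyadenylated part of a transcript and one in its amount cannot be told apart either. The TMM factors were 1.35 to 1.73 in GV, 0.794 to 0.880 in MII and 0.826 to 0.922 in ‘damaged’ libraries. On library sizes without these factors the median of all genes fell to -1.09 in MII and -1.01 in ‘damaged’ oocytes, a shift of -0.91 and -0.87, and 7 autophagy genes rose and 24 fell in MII (10.9% and 57.5% of all genes), 4 and 24 in ‘damaged’ oocytes (11.2% and 56.0%). On that scale *ATG14* and *RB1CC1* turned from a rise to -0.26 and -0.23 in MII, without passing the test there. The genes that passed as falls on that scale alone were *ULK2*, *ATG13*, *ATG101*, *PIK3C3*, *UVRAG*, *AMBRA1*, *ATG4A*, *ATG4B* and *SQSTM1* in both comparisons, *TECPR1* in MII and *ULK3*, *WDR45B* and *OPTN* in ‘damaged’ oocytes. By its construction this scaling shifts each gene by about as much, so the distance of a gene from the median of all genes hardly depends on it. Of the 43 genes 22 stood above that median in MII and 23 in ‘damaged’ oocytes.

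**Figure D2:**
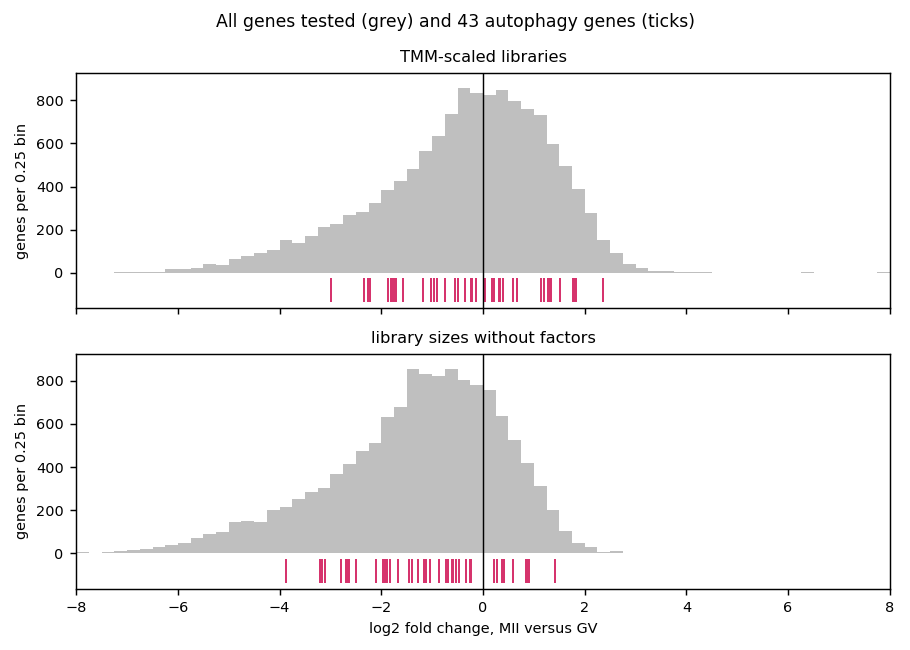
Number of genes per bin of 0.25 (y axis) by log2 fold change between MII and GV (x axis) for all 13225 genes tested, with the 43 autophagy genes as ticks, on TMM-scaled libraries (top) and on library sizes (bottom). The median of all genes moves from -0.17 to -1.09 between the panels, and the ticks move with it.

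Of the 6 genes of the initiation complex, *ULK1* and *ULK3* fell and *RB1CC1* rose in MII, while in ‘damaged’ oocytes *ULK1* alone passed the test. *ULK1* (ENSSSCG00000009742, chromosome 14, 23423693 to 23448130 of Sscrofa11.1, as are all positions here) encodes the kinase that starts autophagosome formation. In the order of the replicate numbers, its normalised level was 2.30, 4.37, 2.74 and 5.22 CPM in GV libraries 1, 2, 4 and 5, and 1.31, 0.676, 0.305, 0.839 and 0.799 CPM in MII. In ‘damaged’ oocytes it was 0.752, 0.526, 0.180, 0.950 and 1.33 CPM, so each GV library stood above each library after IVM. The fall was 4.69-fold in MII (log2 fold change -2.23, SE 0.425, FDR 0.000104) and 5.39-fold in ‘damaged’ oocytes (-2.43, SE 0.436, FDR 5.38e-05). Without MII replicate 3 or ‘damaged’ replicate 3 it became -1.97 and -1.98, still a fall but no DEG.

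*RB1CC1*, the scaffold of the complex also called FIP200, was at 33.5 to 53.4 CPM in GV and 54.7 to 83.7 in MII, and rose by 0.68 on the log2 scale (SE 0.168, FDR 0.00128). On library sizes it was -0.23. It did not pass with a filter of 10 CPM (0.35, FDR 0.0682) or in the 8 libraries whose names and totals agree (0.44, FDR 0.106). That subset was chosen after the data were seen. It holds GV replicates 4 and 5 and replicates 3 to 5 of both other groups, so its power is lower. The value of *RB1CC1* in ‘damaged’ oocytes was 0.44 (FDR 0.0250), and 0.55 (FDR 0.00923) without GV replicate 5. *ULK3*, a kinase related to ULK1, was at 0.563 to 1.22 CPM in GV and 0.0940 to 0.459 CPM in MII. It fell by 1.75 in MII (FDR 0.00279), which did not pass without GV replicate 5 (-1.52, FDR 0.0111) or MII replicate 4 (-1.49, FDR 0.0143) or in those 8 libraries (-1.76, FDR 0.0181), and passed the DEG threshold without MII replicate 5 (-2.01). *ULK2* (-0.76 and -0.89), the regulatory subunit *ATG13* (-0.49 and -0.39) and its partner *ATG101* (-0.36 and -0.51) were below GV without passing the test in either comparison. *ULK2* did pass without MII replicate 3 in MII (-0.96, FDR 0.00586), and in ‘damaged’ oocytes without MII replicate 3 or 5 or ‘damaged’ replicate 5 (FDR 0.00153 to 0.00979) or with all 5 GV libraries (-0.96, FDR 0.00636). With a filter of 10 CPM *ULK2* (-1.09, FDR 0.00224, and -1.20, FDR 0.00112), *ATG13* (-0.82, FDR 0.000373, and -0.70, FDR 0.00133) and *ATG101* (-0.69, FDR 0.00145, and -0.82, FDR 0.000335) passed in both comparisons. In MII that filter lowered the values of these genes and of *RB1CC1* by about as much, so their calls moved together. In TPM, the share of transcripts corrected for length, *ULK2* made up 74.0% of the ULK1, ULK2 and ULK3 transcripts in GV, 85.8% in MII and 83.7% in ‘damaged’ oocytes. The libraries ran from 65.4 to 80.7% in GV, 68.5 to 92.5% in MII and 69.0 to 91.3% in ‘damaged’ oocytes, so the groups overlapped.

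In the lipid kinase complex 3 of 7 genes rose and 1 fell, in each comparison. *BECN1* (ENSSSCG00000017386, chromosome 12, 20041914 to 20054249) encodes beclin, the scaffold that brings the kinase to the membrane. It was at 42.7, 43.9, 45.6 and 34.0 CPM in GV, 105, 99.2, 108, 98.7 and 111 CPM in MII and 101, 97.2, 125, 86.3 and 96.6 CPM in ‘damaged’ oocytes. No GV library reached any library after IVM, and the rise was 2.53-fold in MII (1.34, SE 0.135, FDR 3.39e-08) and 2.44-fold in ‘damaged’ oocytes (1.28, FDR 6.11e-08). On library sizes it was 0.42 in MII and 0.41 in ‘damaged’ oocytes, where it did not pass (FDR 0.0105).

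*NRBF2*, a subunit that tightens the complex, rose alike, from 66.3 to 73.5 CPM in GV to 148 to 189.9 CPM in MII (1.31, FDR 4.99e-09) and 157 to 185 CPM in ‘damaged’ oocytes (1.28, FDR 7.16e-09). *ATG14*, which directs the complex to autophagy, rose less (0.66, FDR 0.00129, and 0.68, FDR 0.00102), and its direction turned on library sizes (-0.26 and -0.20) and it did not pass with a filter of 10 CPM (0.33, FDR 0.0656, and 0.37, FDR 0.0438). *PIK3R4*, the regulatory kinase of the core, fell from 58.3 to 65.8 CPM to 23.5 to 44.1 CPM in MII (-0.96, FDR 2.45e-05) and 26.4 to 39.2 CPM in ‘damaged’ oocytes (-0.99, FDR 1.78e-05). The catalytic subunit *PIK3C3* (0.33 and 0.24), *UVRAG* (-0.22 and -0.06), the ATG14 counterpart in endosomal complexes, and *AMBRA1* (-0.55 and -0.51), a BECN1 partner, did not pass the test, although *AMBRA1* did without GV replicate 1 (-0.72, FDR 0.00476, and -0.68, FDR 0.00692) and with a filter of 10 CPM (-0.89, FDR 0.00185, and -0.83, FDR 0.00302).

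Among the 8 genes that supply lipid to the membrane or read its lipid mark, 6 were tested, of which 2 rose and 2 fell in MII and 2 rose and 1 fell in ‘damaged’ oocytes. *VMP1* (ENSSSCG00000017668) was at 32.1, 15.3, 24.1 and 9.74 CPM in GV and at 82.7, 89.5, 95, 91.6 and 110.1 CPM in MII. In ‘damaged’ oocytes it was at 117, 82.9, 129, 88.7 and 70.0 CPM, so the groups did not overlap with GV. This was a 5.11-fold rise in MII (2.35, SE 0.256, FDR 9.89e-08) and a 5.20-fold rise in ‘damaged’ oocytes (2.38, FDR 8.67e-08), the only DEG above GV among the 43. It rose by 1.89 and 1.94 where estimated counts were summed per gene without correction for transcript length, and then was no DEG.

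*ATG9A* (ENSSSCG00000016211, chromosome 15, 121254355 to 121265564), the scramblase of the vesicles that seed the autophagosome, went the other way. Its level was 0.756, 1.85, 1.33 and 2.66 CPM in GV and 0.242, 0.445, 0.0753, 0.311 and 0.412 CPM in MII. In ‘damaged’ oocytes it was 0.223, 0.223, 0.230, 0 and 0.458 CPM, where 0 counts allow up to 0.193 CPM (3 counts, counting error only). All values after IVM lay below all GV values, and the fitted fall was 5.07-fold in MII (SE 0.560 on the log2 scale, FDR 0.000952) and 8.03-fold in ‘damaged’ oocytes (SE 0.611, FDR 0.000209), both from few counts.

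*ATG2B*, a lipid channel between the endoplasmic reticulum and the new membrane, rose from 62.7 to 79.6 CPM in GV to 125 to 174 CPM in MII (1.14, FDR 9.46e-07) and 122 to 178 CPM in ‘damaged’ oocytes (1.13, FDR 1.04e-06), but not on library sizes (0.22 and 0.26, FDR 0.190 and 0.135). Its paralogue *ATG2A* had at most 15.2 counts in any GV library and was not tested. *WDR45B*, a reader of the lipid mark, fell in MII (-1.01, FDR 0.000144) and was at -0.49 in ‘damaged’ oocytes (FDR 0.0319), but passed without GV replicate 1 (-0.65, FDR 0.00379), with a filter of 10 CPM (-0.80, FDR 0.00123) and on library sizes (-1.36, FDR 2.06e-05). The readers *WIPI2* (0.17 and 0.25) and *WDR45* (0.38 and 0.26) did not pass, and *WIPI1* had 1.59 to 4.83 counts per GV library and was not tested.

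**Figure D3:**
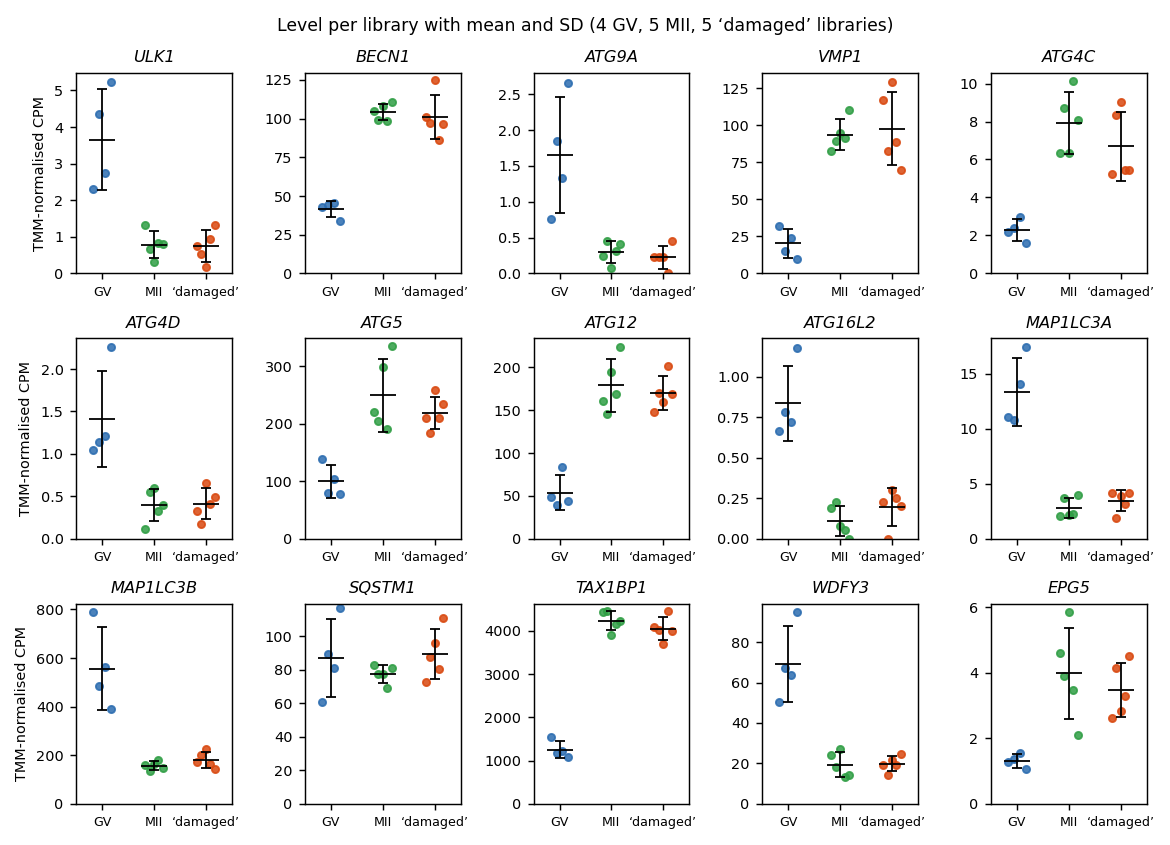
TMM-normalised CPM (y axis, from 0) of 15 autophagy genes in each GV (n = 4), MII (n = 5) and ‘damaged’ (n = 5) library, with the mean and SD as bars. Of the genes shown, 12 were picked for large changes in MII without overlap with GV, so their separation was fixed by that choice, and for *SQSTM1* the groups overlap.

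Of the 11 conjugation genes 3 rose and 5 fell in MII, and 4 rose and 5 fell in ‘damaged’ oocytes. ATG12 is joined to ATG5 by ATG7 and ATG10, and the product with ATG16L1 places the ATG8 proteins on the membrane, for which ATG4 proteases prepare them and ATG7 and ATG3 carry them. *ATG12* and *ATG5* rose, and *ATG7* and *ATG3* fell, in both comparisons. *ATG12* (ENSSSCG00000033912, chromosome 2, 119948443 to 119965702) was at 48.3, 39.1, 83.7 and 43.7 CPM in GV and 161, 146, 195, 169 and 224 CPM in MII, with 148, 170.1, 159.6, 202 and 169 CPM in ‘damaged’ oocytes. No libraries overlapped between GV and either group, and it rose by 1.79 (SE 0.187, FDR 5.76e-08) and 1.72 (FDR 1.02e-07). Without GV replicate 4, the highest of the 4, the rise in MII was 2.03 and passed the DEG threshold.

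*ATG5* (ENSSSCG00000004370, chromosome 1, 72343950 to 72520402) was at 139, 79.3, 104 and 77.7 CPM in GV. It was at 219.5, 205, 299, 189.9 and 335 CPM in MII and at 209.6, 184, 258, 209 and 234 CPM in ‘damaged’ oocytes, again without overlap. It rose by 1.33 (SE 0.190, FDR 3.71e-06) and 1.17 (FDR 1.89e-05), but on library sizes the values of 0.41 and 0.29 did not pass. *ATG7*, the activating enzyme of both reactions, fell from 95.4 to 159 CPM to 42.4 to 59.7 CPM in MII (-1.18, FDR 1.09e-06) and 45.1 to 57.5 CPM in ‘damaged’ oocytes (-1.23, FDR 6.91e-07). *ATG3*, the enzyme that hands ATG8 proteins to their lipid, fell from 25.3 to 31.5 CPM to 5.60 to 16.0 CPM in MII (-1.58, FDR 2.70e-06) and 9.0 to 14.8 CPM in ‘damaged’ oocytes (-1.27, FDR 2.86e-05). *ATG10*, the enzyme specific to ATG12, had 0.725 to 1.04 CPM in GV, 0.928 to 1.68 in MII and 0.926 to 2.46 in ‘damaged’ oocytes. Its rise in ‘damaged’ oocytes (0.98, FDR 0.00780) was lost when GV replicate 2, 4 or 5, MII replicate 1 or ‘damaged’ replicate 2, 3 or 5 was left out (FDR 0.010 to 0.0245). It was also lost where estimated counts were summed per gene (0.20, FDR 0.495), on library sizes (0.10, FDR 0.787) and in the 8 libraries whose names and totals agree (FDR 0.0174), and in MII the gene did not pass (0.59, FDR 0.106).

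*ATG16L1*, which fixes where conjugation takes place, fell in both comparisons (-0.91, FDR 0.000209, and -0.79, FDR 0.000746) and made up at least 98.4% of the *ATG16L1* and *ATG16L2* TPM in the group means. *ATG16L2* (ENSSSCG00000014819, chromosome 9, 7346973 to 7360189), a less studied relative, was at 0.663, 0.780, 0.720 and 1.18 CPM in GV and 0.187, 0.225, 0.0762, 0.0524 and 0 CPM in MII. In ‘damaged’ oocytes it was at 0.226, 0, 0.300, 0.253 and 0.199 CPM, and the libraries at 0 allow up to 0.187 CPM in MII and 0.228 CPM in ‘damaged’ oocytes. All lay below GV, with fitted changes of -2.99 (SE 0.604, FDR 0.000187) and -2.16 (SE 0.545, FDR 0.00154). The latter was -1.96 without GV replicate 5 and -1.62 without ‘damaged’ replicate 2, in both cases no DEG, and in the 8 libraries whose names and totals agree it did not pass (-1.73, FDR 0.0163).

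The 4 ATG4 proteases, which trim ATG8 proteins and release them again, did not move together. *ATG4A* made up 93.7% of the family's TPM in GV, 93.9% in MII and 94.0% in ‘damaged’ oocytes, and its values of 0.04 and -0.06 (FDR 0.752 and 0.672) did not pass. On library sizes it fell by 0.87 and 0.93 (FDR 8.72e-07 and 4.01e-07), and with a filter of 10 CPM it passed in ‘damaged’ oocytes (-0.37, FDR 0.00543). *ATG4C* (ENSSSCG00000003816, chromosome 6, 149560318 to 149691959) was at 2.18, 2.4, 2.97 and 1.60 CPM in GV, 6.32, 8.73, 6.35, 10.1 and 8.09 CPM in MII and 5.23, 8.33, 9.0, 5.47 and 5.45 CPM in ‘damaged’ oocytes. All values after IVM were above all in GV, and it rose by 1.82 (SE 0.25, FDR 2.14e-06) and 1.55 (FDR 1.84e-05), the latter not on library sizes (0.67, FDR 0.0189). *ATG4D* (ENSSSCG00000013645, chromosome 2, 69320313 to 69328522) was at 1.05, 1.14, 1.21 and 2.26 CPM in GV, 0.117, 0.552, 0.598, 0.327 and 0.396 CPM in MII and 0.330, 0.167, 0.656, 0.411 and 0.494 CPM in ‘damaged’ oocytes. It fell without overlap by 1.80 (SE 0.413, FDR 0.000652) and 1.72 (FDR 0.000858), the latter not passing in those 8 libraries (-1.60, FDR 0.0109). *ATG4B* overlapped in all groups (-0.23 and -0.33, FDR 0.448 and 0.293), but fell where estimated counts were summed per gene (-0.80, FDR 0.00603, and -0.88, FDR 0.00331), and its isoforms changed.

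All 5 genes of the ATG8 family passed the test in both comparisons. Of all genes 28.2% rose and 34.2% fell in MII, and 28.0% and 33.4% in ‘damaged’ oocytes. In the family *MAP1LC3A*, *MAP1LC3B* and *GABARAP* fell and *GABARAPL1* and *GABARAPL2* rose. On library sizes *GABARAPL1* did not pass in either comparison and *GABARAPL2* not in ‘damaged’ oocytes. *MAP1LC3B* (ENSSSCG00000002655, chromosome 6, 1919879 to 1941069), the LC3 protein most used as an autophagosome marker, was at 791, 483, 562 and 389.7 CPM in GV. It was at 158, 134, 165, 180.3 and 146 CPM in MII and 173, 200.4, 226, 164 and 141 CPM in ‘damaged’ oocytes. Even the lowest GV library stood above all others, and the fall was 3.44-fold in MII (-1.78, SE 0.178, FDR 2.94e-08) and 3.01-fold in ‘damaged’ oocytes (-1.59, FDR 1.40e-07).

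*MAP1LC3A* (ENSSSCG00000007281, chromosome 17, 37957830 to 37959505), a closely related LC3, was at 11.07, 10.8, 14 and 17.4 CPM in GV and at 2.06, 3.68, 2.13, 2.25 and 3.93 CPM in MII. It was at 4.14, 1.88, 3.90, 3.10 and 4.11 CPM in ‘damaged’ oocytes. The groups did not overlap with GV, and it fell by 2.25 (SE 0.256, FDR 1.71e-07), a DEG, and by 1.97 (FDR 6.24e-07), just short of one, and a DEG (-2.02 to -2.07) without GV replicate 1 or 2 or ‘damaged’ replicate 1, 3 or 5. *GABARAP* fell from 14 to 30.4 CPM to 5.21 to 6.67 CPM in MII (-1.71, FDR 1.77e-06) and 4.19 to 7.74 CPM in ‘damaged’ oocytes (-1.86, FDR 7.26e-07, and -2.02, a DEG, without GV replicate 5).

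*GABARAPL2* (ENSSSCG00000002707, chromosome 6, 12122219 to 12132986), also called GATE-16 and tied to late steps of autophagosome growth, rose from 159 to 289.8 CPM to 411 to 591 CPM in MII (1.28, FDR 5.10e-07) and 410.3 to 563 CPM in ‘damaged’ oocytes (1.19, FDR 1.39e-06). *GABARAPL1* stayed rare, at 0.766 to 1.67 CPM in GV, and rose to 2.10 to 4.98 CPM in MII (1.20, FDR 0.00125) and 2.29 to 3.60 CPM in ‘damaged’ oocytes (1.27, FDR 0.000699). It did not pass in MII with estimated counts summed per gene (0.84, FDR 0.0138) nor in ‘damaged’ oocytes in the 8 libraries (1.36, FDR 0.0183).

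As shares of the family's TPM, *MAP1LC3B* was 62.7% ± 1.27 in GV (SD, n = 4), 20.8% ± 3.65 in MII (n = 5) and 24.1% ± 2.83 in ‘damaged’ oocytes (n = 5). *GABARAPL2* was 27.6% ± 1.82, 75.8% ± 3.68 and 72.5% ± 2.66. The order of both was thus opposite in GV and after IVM, in each library. In GV this order rests on 1 transcript of *MAP1LC3B* of 334 nt, which held 71.5% of the gene's TPM there. Without it, an alternative chosen after the data were seen, *GABARAPL2* led in GV as well (50.1% against 32.4%) and rose to 85.5% in MII and 84.5% in ‘damaged’ oocytes, while *MAP1LC3B* fell to 10.6% and 11.6%. The shift between both genes thus did not depend on that transcript, but their order in GV did.

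**Figure D4:**
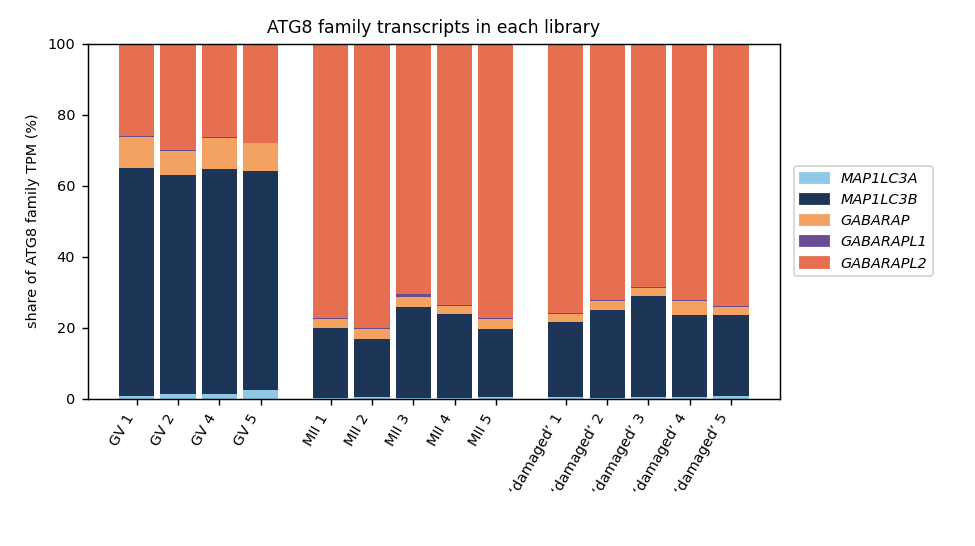
Share (y axis, percent) of each ATG8 family gene in the summed TPM of the family, in each GV, MII and ‘damaged’ library (x axis). *MAP1LC3B* takes 61.6 to 64.3% in GV and 16.4 to 25.5% in MII, and *GABARAPL2* 26.1 to 30.1% and 70.6 to 80.1%.

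Of the 6 cargo receptors and adaptors, *TAX1BP1* rose, *WDFY3* fell and 4 did not pass, in both comparisons. *TAX1BP1* (ENSSSCG00000016692, chromosome 18, 44827908 to 44910265) encodes a receptor for ubiquitinated cargo. It was at 1537, 1174, 1225 and 1074 CPM in GV, 4442, 4449, 3911, 4158 and 4221 CPM in MII and 4091, 4025, 3693, 4450.0 and 4007 CPM in ‘damaged’ oocytes. The groups lay far apart, and the rise of 1.77 in MII (3.41-fold, SE 0.116, FDR 9.02e-11) and 1.71 in ‘damaged’ oocytes (FDR 1.60e-10) had the lowest FDR of the 43 genes. Per length it was the most abundant of them after IVM, with 1203 TPM in MII and 1195 in ‘damaged’ oocytes, and came after *MAP1LC3B* in GV (729 against 1281 TPM).

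*SQSTM1* (ENSSSCG00000014016, chromosome 2, 78752768 to 78763998), the receptor p62, overlapped in all groups. It was at 60.5, 89.4, 81.3 and 117 CPM in GV, 82.6, 77.4, 77.4, 68.9 and 81.2 CPM in MII and 72.8, 87.6, 95.9, 80.5 and 111 CPM in ‘damaged’ oocytes. The values of -0.14 (FDR 0.477) and 0.06 (FDR 0.739) did not pass, but on library sizes it fell by 1.05 and 0.80 (FDR 0.000152 and 0.00158), close to the median of all genes on that scale. *NBR1* (0.22 and 0.12), *OPTN* (0.31 and 0.18) and *CALCOCO1* (0.39 and 0.52), other receptors, did not pass either.

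*WDFY3* (ENSSSCG00000009230, chromosome 8, 133665585 to 133939860) encodes ALFY, a very large adaptor for protein aggregates. It was at 50.4, 67.4, 63.9 and 95 CPM in GV, 23.9, 18.2, 27.3, 13.3 and 14.5 CPM in MII and 19.3, 14.3, 21.6, 19.2 and 24.4 CPM in ‘damaged’ oocytes. The groups did not overlap and it fell by 1.87 (SE 0.217, FDR 2.28e-07) and 1.79 (FDR 3.95e-07), and was a DEG in MII without MII replicate 3 (-2.01). This fall depends on how transcripts of unequal length are weighted, because with estimated counts summed per gene it was -0.39 (FDR 0.121) and -0.52 (FDR 0.0445). The loss was in the short isoform of 2180 nt, at 24.8 TPM in GV, 1.28 in MII and 1.72 in ‘damaged’ oocytes, while the isoform of 11412 nt was at 2.80, 2.37 and 2.14 TPM.

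*EPG5* (ENSSSCG00000021072, chromosome 1, 95493779 to 95616794), a tether that gives autophagosomes their fusion partner, was at 1.28, 1.35, 1.54 and 1.05 CPM in GV. It was at 4.59, 3.91, 5.87, 3.46 and 2.09 CPM in MII and 2.63, 4.13, 2.82, 3.29 and 4.51 CPM in ‘damaged’ oocytes. Without overlap with GV, it rose by 1.51 (SE 0.299, FDR 0.000150) and 1.39 (FDR 0.000379), but on library sizes it did not pass (0.59 and 0.51), nor in the 8 libraries whose names and totals agree (1.47, FDR 0.0127, and 1.48, FDR 0.0126). *TECPR1*, another tether, was at -1.03 and -0.41 (FDR 0.0687 and 0.432).

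Other genes of the pathway, 53 taken from lists by function, were read beside the 45. Of these 50 had a symbol in the data and 46 were tested. In MII 11 rose and 20 fell (28.2% and 34.2% of all genes), and in ‘damaged’ oocytes 10 and 20 (28.0% and 33.4%). In the fusion machinery of the autophagosome 9 of 12 genes fell in each comparison, their list having a median change of -1.91 and -1.83 on the log2 scale, where all genes had -0.17 and -0.14. They include *SNAP29* (-3.19 and -3.34), a SNARE of the autophagosome, at 18.3 to 23.0 CPM in GV and 1.73 to 3.13 CPM in MII, its partners *VAMP8* (-2.32 and -2.33) and *STX17* (-0.91 and -0.83), and *RAB7A* (-1.98 and -1.91), the GTPase of late endosomes. *VPS39*, a subunit of the HOPS tether, rose in MII (0.88, FDR 0.00262, -0.03 on library sizes).

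Beside the counts of the lists that follow, 28.2% of all genes rose and 34.2% fell in MII, and 28.0% and 33.4% in ‘damaged’ oocytes. Of the mTORC1 and AMPK genes, which sense nutrients and energy upstream of ULK1, 5 of 10 fell and 1 rose in each comparison. Among them the mTORC1 subunit *MLST8* (-3.14 and -2.98) went from 11.2 to 23.0 CPM to 1.38 to 2.36 CPM in MII, and *AKT1S1*, an mTORC1 inhibitor, from 1.89 to 6.02 CPM to 0 to 0.225 CPM, a fitted change of -5.27 (-4.93 in ‘damaged’ oocytes) from at most 2.96 counts per MII library. *DEPTOR*, another mTORC1 inhibitor, rose (0.85 and 0.76, against -0.07 and -0.12 on library sizes). Of 8 further receptors tested, 4 rose and 1 fell in each comparison. *TBK1*, a kinase that activates receptors, was the DEG above GV (2.41, FDR 1.29e-07, and 2.24, FDR 3.86e-07), and the endoplasmic reticulum receptor *TEX264* the DEG below (-3.03 and -3.02). Of 2 TFEB family genes tested, *MITF* rose and *TFE3* fell in each comparison. On library sizes *MITF* did not pass (0.096, FDR 0.764, and 0.36, FDR 0.247), and its MII and GV libraries overlapped. Of 5 negative regulators 2 fell and none rose, and of 9 other autophagosome genes 4 rose and 2 fell, in each comparison.

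Isoform usage, the share of each transcript in the TPM of its gene, changed in many of the 45 genes. Genes with several transcripts and a TPM over 1 were tested with the DEXSeq model, and an isoform was called at an FDR under 0.01 and a difference over 0.1 in fraction, that is, 10 percentage points. In MII 34 of 75 isoforms in 18 of 28 genes were called, against 32.2% of all isoforms and 42.4% of all genes tested. In ‘damaged’ oocytes it was 33 of 73 in 16 of 28 genes, against 32.4% and 42.5%. Of the genes called, 9 in MII and 6 in ‘damaged’ oocytes had not risen or fallen as genes, among them *ATG4A*, *ATG4B* and *ATG13* in both.

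In *ATG10* the 701 nt isoform (ENSSSCT00000080336.2) was listed at 0, 21.9, 0 and 0% of the gene in GV. It held 96.9, 74.4, 78.1, 74.4 and 93.5% in MII and 48.4, 83.3, 75.8, 83.0 and 97.7% in ‘damaged’ oocytes, above GV in each library, with differences of 78.0 (FDR 4.18e-06) and 72.1 percentage points (FDR 0.000142). The 1092 nt isoform fell from 67.7% ± 15.5 to 6.92% ± 10.3 and 11.8% ± 9.41 (FDR 0.00830 and 0.00520), which did not pass with all 5 GV libraries (FDR 0.0180 and 0.0182). By limma diffSplice it was lost in ‘damaged’ oocytes without GV replicate 1, 4 or 5 or ‘damaged’ replicate 2, 3 or 5 (FDR 0.0111 to 0.0263). The gene had as few as 15.2, 12.0 and 12.2 counts in a GV, MII and ‘damaged’ library.

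In *WDFY3* the 2180 nt isoform (ENSSSCT00000089278.1) held 89.2, 89.0, 89.4 and 90.9% of the gene in GV, 28.3, 32.4, 42.6, 21.2 and 46.1% in MII and 59.3, 32.5, 62.5, 40.8 and 29.8% in ‘damaged’ oocytes. GV was narrow and stood above both, by 55.5 (FDR 6.58e-26) and 44.6 percentage points (FDR 6.49e-11). In *ATG4B* the 1282 nt isoform (ENSSSCT00000047384.3) held 54.9, 31.6, 36.7 and 27.2% in GV, 82.6, 80.2, 95, 80.9 and 81.6% in MII and 74.7, 72.7, 80.2, 77.8 and 90.7% in ‘damaged’ oocytes. It gained 46.5 (FDR 3.26e-08) and 41.6 points (FDR 4.67e-07) without overlap, while the 3321 nt isoform went from 26.9% ± 14.6 to 0.993% ± 0.624 and 0.511% ± 0.317 (FDR 6.46e-08 and 2.30e-10). In GV replicate 3, which was left out, that isoform was listed at 100% of the gene.

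In *ATG13* the 3931 nt isoform (ENSSSCT00000053628.2) held 27.5, 28.3, 23.2 and 12.5% in GV, 85.8, 66.1, 73.5, 48.1 and 60.9% in MII and 64.9, 100, 85.0, 54.6 and 57.6% in ‘damaged’ oocytes. The difference passed in MII (44.0 points, FDR 2.24e-05) but not in ‘damaged’ oocytes (49.5 points, FDR 0.0153). With limma diffSplice it passed in the latter (FDR 0.00175), and in MII it did not pass there without GV replicate 5 or MII replicate 1, 2 or 5 (FDR 0.0165 to 0.0267). Other shifts went towards both longer and shorter transcripts. *ATG7* was listed at 0 for its 5482 nt isoform in each GV library, which held 34.5% ± 13.8 in MII and 25.1% ± 3.69 in ‘damaged’ oocytes, and the 988 nt isoform of *BECN1* went from 1.95% ± 0.889 to 13.8% ± 3.86 and 15.7% ± 2.64.

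**Figure D5:**
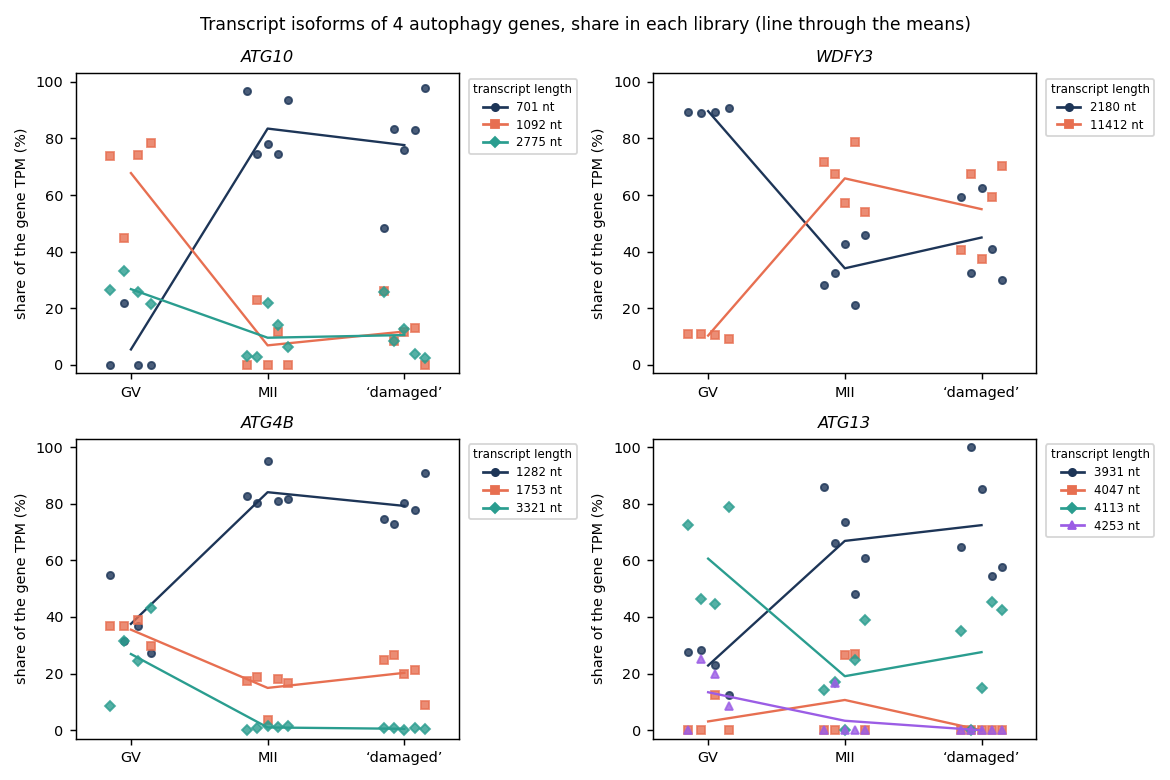
Share in the TPM of its gene (y axis, percent) of each isoform above a minimum share in any library, tested or not, for *ATG10*, *WDFY3*, *ATG4B* and *ATG13*. Each GV, MII and ‘damaged’ library is shown, with lines through the group means and isoforms named by length. The 701 nt isoform of *ATG10* and the 1282 nt isoform of *ATG4B* lead after IVM (83.5% and 84.1% in MII), and the 2180 nt isoform of *WDFY3* leads in GV (89.6%).

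Between MII and ‘damaged’ oocytes none of the 43 genes passed the test, as none of all 13225 genes did (0%). At an unadjusted p under 0.05 there was 1 autophagy gene in limma, *WDR45B* (0.52 higher in ‘damaged’ oocytes, 95% interval 0.12 to 0.93), and 194 genes in all, or 1.47%. That share is below the 1 in 20 that chance alone would give, and the reason was not tested. With edgeR and DESeq2 none of the 43 genes passed, and 263 and 252 of all genes had a p under 0.05. The estimates ran from -0.66 for *ATG9A* (-2.18 to 0.85) to 0.83 for *ATG16L2* (-0.64 to 2.30), both from few counts. For 37 of the 43 genes the interval lay within 1 on either side of 0, a range that holds no 2-fold difference. Among abundant genes the estimate was -0.06 (-0.29 to 0.16) for *TAX1BP1*, -0.05 (-0.31 to 0.21) for *BECN1* and 0.20 (-0.13 to 0.53) for *SQSTM1*. None of 66 isoforms in 26 genes was called, against 0.00933% of all isoforms tested, and 2 of them had an unadjusted p under 0.05.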

How the data were processed

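The 15 libraries were pig RNAseq. As the study's methods describe, the authors made estimated counts and TPM per transcript with Kallisto (0.43 in the submitters' processing notes) from the Ensembl cDNA of Sscrofa11.1, and a gene table of estimated counts with tximport (lengthScaledTPM). The deposited estimated counts are not normalised. Kallisto divides reads that fit several transcripts, and the cDNA kit marks no strand, so near-identical copies and overlapping genes are uncertain.

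In that gene table, 7 of 15 columns carried the name of one library and the total of another, and these were left out. The 8 others served to find the transcripts of 18835 genes, which held at least 99.995% of each library's estimated counts. With these transcripts, the same formula gave gene counts for each of the 15 libraries. In the 8 columns used they differed from the deposited counts by at most 0.00123% where these were 10 or more. The search required that match, so it is no separate check, and the other 7 columns were not compared. On simulated data 6178 of 6179 genes got exactly their transcripts. There each gene was made of adjacent transcripts, as the search assumes, so this does not test that assumption. Of the real genes 927 had more than 1 candidate set of transcripts, of the autophagy genes 0.

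The test of genes was limma 3.58.1 (voom) in R 4.3.3, with TMM factors and filterByExpr (minimum count 10, minimum total 15) of edgeR 4.0.16, in 1 fit of GV (n = 4), MII and ‘damaged’ (n = 5 each). The study's methods name no such scaling, and TMM was taken over from an earlier analysis of these data. FDRs are Benjamini-Hochberg values over the 13225 genes tested. Isoforms were tested by likelihood ratio with the DEXSeq model, fitted in DESeq2 1.42.0, on rounded estimated counts (gene TPM over 1, isoform fraction over 0.05). On simulated counts limma found 100 of 100 genes made to differ by 2 on the log2 scale in each comparison, and of 100 that differed by 1 it found 66 between MII and GV, 69 between ‘damaged’ and GV and 76 between ‘damaged’ and MII, with 0, 0 and 1 false calls. The isoform test recovered 200 of 200 in each comparison, with 4, 4 and 2 genes called that had no change. In both simulations only genes or isoforms of higher mean counts were changed, and the spread was the same for all. The isoform changes were large and called by FDR alone. These figures therefore do not give the power for genes of few counts or for smaller isoform changes.

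The autophagy genes, marker lists and pathway lists were chosen with earlier results of these data known. Values in each library are given for 1 gene fixed per role, the 6 largest rises and 6 largest falls in MII without overlap with GV, and up to 4 genes by the size of an isoform change. Positions are those of RefSeq for Sscrofa11.1 by symbol. Alternatives were library sizes, edgeR's quasi-likelihood test, DESeq2, other filters, all 5 GV libraries, counts summed per gene, a replicate block and each library left out. Summaries used Python 3.11.15.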

Additional observations from a re-analysis of the deposited data

Results flagged for a closer look

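In 7 of the 129 groups of 4 or 5 libraries tested, 1 library stood far from the others by Dixon's criterion, where chance flags about 1 in 20, or 6.45 groups. In GV, replicate 5 was highest for *ATG13* (16.7 CPM, the others 11.3 to 12.0), for *ATG3* (31.5 CPM, the others 25.3 to 26.2) and for *ATG4D* (2.26 CPM, the others 1.05 to 1.21), and replicate 4 for *TECPR1* (1.18 CPM, the others 0.473 to 0.573). In MII, replicate 3 was highest for *ATG4B* (29.7 CPM, the others 14.3 to 16.1) and *GABARAPL1* (4.98 CPM, the others 2.10 to 2.84), and replicate 5 was lowest for *NBR1* (11.9 CPM, the others 15.9 to 16.7).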

How the results depend on the processing

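With edgeR, DESeq2, no filter, all 5 GV libraries and the 8 libraries whose names and totals agree (the last chosen after the data were seen), the counts of autophagy genes that rose or fell stayed within 1.5 times those given. On library sizes 7 rose and 24 fell in MII and 4 and 24 in ‘damaged’ oocytes, with 0 DEGs above GV in both and 11 and 10 below, and *ATG14* (-0.26 and -0.20) and *RB1CC1* (-0.23 in MII) changed direction. With a filter of 10 CPM 32 of the 43 genes were left and 8 rose in each comparison, and of those left *ATG14* (in both) and *RB1CC1* (in MII) no longer passed. In each gene whose result changed with this filter, the value moved down by about as much. In MII, *ATG13* went from -0.49 to -0.82 and *ATG14* from 0.66 to 0.33. These changes are a shared shift, not separate results for each gene. With estimated counts summed per gene there were 0 DEGs above GV. The cause was not tested. With 1 library left out in turn, 13 rose and 13 to 15 fell in MII, with 1 to 2 DEGs above (2 without GV replicate 4) and 4 to 5 below. In ‘damaged’ oocytes 12 to 13 rose and 12 to 14 fell, with 1 DEG above and 2 to 4 below. Isoforms called, by limma diffSplice, were 26 to 35 in MII and 24 to 33 in ‘damaged’ oocytes. Between MII and ‘damaged’ oocytes every alternative gave 0 genes and 0 isoforms.

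The sources used do not say what a replicate number shares across groups, and the libraries were not treated as paired. Of 13 same-numbered pairs 3 had a correlation of deviations over 0.1 (median 0.0717, the 52 other pairs -0.00900). Although most pairs had unlike numbers, 9 of 14 libraries correlated best with one of their own number. Whether same-numbered libraries share a collection was not tested, and the main fits do not allow for it. With a replicate block 13 rose and 14 fell in MII, 13 and 14 in ‘damaged’ oocytes, where *ULK2* (-0.98, FDR 0.00667) and *WDR45B* (-0.51, FDR 0.00443) passed, and 0 between them. By limma diffSplice with that block 20 isoforms were called in MII and 29 in ‘damaged’ oocytes, against 32 and 29 without it. Totals of 6.40 to 23.6 M limit genes of few counts, such as *ATG9A*, *ATG16L2* and *ATG10*, most.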
